A study of Mus musculus with 7 samples.

Results

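The serpins are a superfamily of protease inhibitors and related proteins, and their transcripts were examined in follicular dendritic cells (FDCs), the stromal cells that hold antigen for B cells in the lymphoid follicle. The genes were taken as every row of the expression table whose symbol begins with Serpin followed by a clade letter from a to i, without regard to the measured values. This gave 32 of the 21176 genes in the table: 14 of clade a, 10 of clade b and 8 of clades c to i. Of these, 29 were annotated as protein coding in GENCODE M21 (build GRCm38), and Serpina3h, Serpinb1-ps1 and Serpinb10 were annotated as pseudogenes of different kinds. The FDCs came from the popliteal lymph nodes of male mice, 8 to 12 weeks old and not immunized, and were isolated by flow cytometry. Wild-type mice (WT, n = 4 samples) were compared with mice lacking Ngfr, the low-affinity neurotrophin receptor gene (Ngfr KO, n = 3 samples). Nodes of several animals went into each sample. The labels name no strain and no construction of the Ngfr allele.

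A serpin presents an exposed peptide, the reactive centre loop, as bait to a protease. Cleavage of the loop makes the serpin fold the cut strand into its central sheet and trap the protease, so that each inhibitor molecule is used once. The sequence of the loop decides which proteases are caught, while the hinge at its start is similar in inhibitory members. Most clade a members and those of clades c to g are secreted and act on blood, complement and tissue proteases. Clade b members lack a classical signal peptide and mostly act inside cells against leaked granule and lysosomal proteases.

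Mouse serpin clusters hold near-identical copies, which decides how far single genes can be read. The coding stretches for the hinge and loop are shown because the loop sets which protease is bound. Each stretch has 75 bases (25 codons), begins at the hinge motif, and is read 5′ to 3′ on the coding strand of the GENCODE M21 transcript (GRCm38). Capitals mark positions that are not the same in all sequences of a set, compared base by base without gaps. For the copies of Serpina1, the mouse counterparts of alpha-1-antitrypsin, the stretches lie on the minus strand of chromosome 12 at chr12:103853756-103853830, chr12:103728323-103728397, chr12:103895093-103895167, chr12:103763761-103763835 and chr12:103947099-103947173.
Serpina1a: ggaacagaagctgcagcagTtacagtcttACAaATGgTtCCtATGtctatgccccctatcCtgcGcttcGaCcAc
Serpina1b: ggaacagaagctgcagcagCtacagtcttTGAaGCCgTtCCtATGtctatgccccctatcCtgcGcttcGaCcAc
Serpina1c: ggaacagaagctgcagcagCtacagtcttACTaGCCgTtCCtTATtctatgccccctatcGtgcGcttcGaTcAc
Serpina1d: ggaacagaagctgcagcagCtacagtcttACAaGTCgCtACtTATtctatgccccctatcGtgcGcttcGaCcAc
Serpina1e: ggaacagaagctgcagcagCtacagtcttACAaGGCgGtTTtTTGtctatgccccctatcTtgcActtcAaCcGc
Of the 18 positions that varied, 2 fell in the first 30 bases and 16 in the last 45. Pairs of these genes differed at 5 to 12 of the 75 positions. For the Serpina3 genes, the mouse expansion related to alpha-1-antichymotrypsin, the stretches lie on the plus strand of chromosome 12 at chr12:104220245-104220319, chr12:104241072-104241146, chr12:104268480-104268554 and chr12:104413448-104413522.
Serpina3f: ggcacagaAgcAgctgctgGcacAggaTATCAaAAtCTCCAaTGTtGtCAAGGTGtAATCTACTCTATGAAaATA
Serpina3g: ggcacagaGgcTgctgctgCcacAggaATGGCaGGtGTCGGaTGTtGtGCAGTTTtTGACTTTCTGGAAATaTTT
Serpina3i: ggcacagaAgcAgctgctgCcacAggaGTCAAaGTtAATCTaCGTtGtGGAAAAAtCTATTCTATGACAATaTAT
Serpina3n: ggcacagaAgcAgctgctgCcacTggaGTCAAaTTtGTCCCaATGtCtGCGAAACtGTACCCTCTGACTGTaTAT
Here 7 of the first 30 and 38 of the last 45 positions varied, and pairs differed at 19 to 37 positions. The third set compares Serpinb1a, the serpin with the largest rise among those that passed the filter on low values, with its paralog Serpinb1b, at chr13:32842896-32842970 (minus strand) and chr13:33093773-33093847 (plus strand) on chromosome 13.
Serpinb1a: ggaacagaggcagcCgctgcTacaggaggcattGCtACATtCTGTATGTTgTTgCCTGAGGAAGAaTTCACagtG
Serpinb1b: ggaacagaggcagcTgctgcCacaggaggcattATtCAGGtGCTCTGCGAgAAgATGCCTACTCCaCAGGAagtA
These differed at 36 positions, 34 of them in the last 45 bases.

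The share of each gene's transcript sequence that other genes repeat was measured with words of 50 bases. It was highest for Serpina1c (74.2% of its words, most of them shared with Serpina1a), Serpina1a (57.6%) and Serpina1d (50.9%), and lower for Serpina1e (34.6%) and Serpina1b (29.5%). Serpina11 shared 35.7%, all with the predicted gene Gm28577. The Serpina3 genes shared 6.9% (Serpina3n) to 21.9% (Serpina3h). Serpinb1a shared 2.81%, Serpinb8 0.165%, and Serping1, Serpinf1, Serpind1 and Serpinh1 shared none. The read length and the treatment of reads that match several genes are not given in the sources used here, so values of single Serpina1 copies are uncertain. One annotated Serpina1b transcript also spans the Serpina1d gene, and Serpinb2 and Serpinb10 overlap on 1 strand.

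Libraries differed in ways that bear on every comparison. Recovered reads numbered 17244925 to 18873542 per library in WT, and the 3 Ngfr KO libraries were deeper, with 20741770 to 21538400. The targeted gene, Ngfr, was covered by 97, 181, 298 and 298 reads in WT and 84, 104 and 46 in Ngfr KO. Its values were 0.377, 0.677, 1.30 and 1.14 in WT and 0.305, 0.353 and 0.184 in Ngfr KO, lower in every Ngfr KO sample than in any WT sample. Which exons those reads cover cannot be seen in a table of genes. All 15 FDC markers listed were above 0 in every sample, and their summed value was 1841 to 5158 in WT, against 8032 to 10546 in Ngfr KO. WT replicate 1 had the lowest FDC score (mean log2(value + 1) of the markers) at 4.51, where the other WT samples had 5.36 to 5.69 and the Ngfr KO samples 6.89 to 7.12. The same replicate was lowest of all 7 for Serpinb1a, Serpinb8, Serpina1b, Serpina1e and Serping1.

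Values are the authors' TMM-normalised read counts, in which a value of 1 stands for 230 to 295 reads, depending on the sample. They are not divided by gene length. As a share of all recovered reads, serpin transcripts together stood at 2187, 2361, 3432 and 2938 RPM (reads scaled to a common library total) in WT replicates 1 to 4 and 6284, 5726 and 6030 in Ngfr KO replicates 1 to 3. All Ngfr KO samples lay above all WT samples, with a ratio of the group means of 2.20. Ranked by mean value over all samples, Serpina3g came first, followed by Serpinb1a, Serpina1e, Serpina3n and Serping1. Divided by exon length, Serpina3g led in WT: it stood at 20.9 per kilobase, Serpina1e at 12.3, Serpina3n at 10.9, Serpina3f at 10.2 and Serpinb1a at 4.45. In Ngfr KO, Serpina1e led at 48.5 per kilobase, followed by Serpinb1a at 42.4, Serpina3g at 34.4 and Serping1 at 20.6. The first 2 overlapped there, at 40.8 to 56.0 for Serpina1e and 36.4 to 45.7 for Serpinb1a, and Serpinb1a was the higher in Ngfr KO replicate 1. The values of Serpina3n, Serpina3f and Serpina1e overlapped within WT, so their order there is not beyond the spread.

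**Figure D1:**
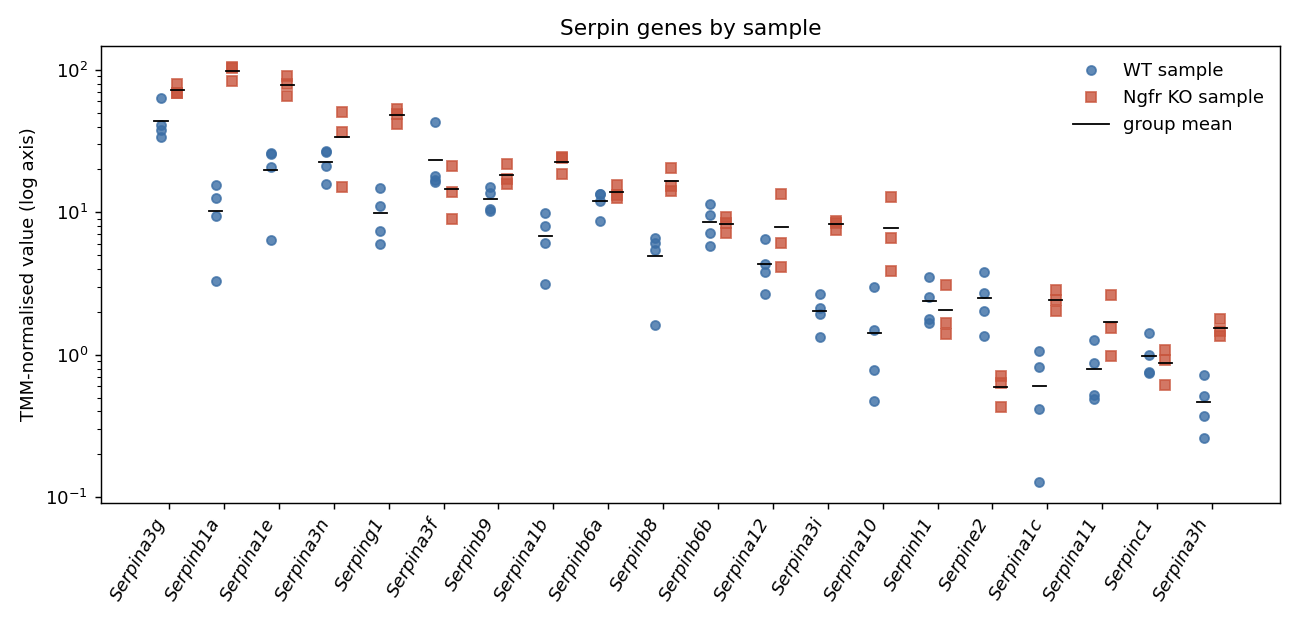
TMM-normalised values (log axis, not divided by gene length) of 20 serpin genes that passed the filter, ordered by their mean over all samples. Circles are the 4 WT samples, squares the 3 Ngfr KO samples and black lines the group means. The squares of Serpinb1a (83.9 to 105) lie well above its circles (3.32 to 15.5), and those of Serpine2 lie below its circles.

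Ngfr KO was compared with WT in 2 tests. The first was limma on log2(value + 1) over the 8326 genes that reached a value of 1 in 3 or more samples. Its log2 changes are on that scale and understate the change of low genes. The second was edgeR's quasi-likelihood test on the reads recovered from the values, over 16751 genes. A gene was called when its Benjamini-Hochberg adjusted p was under 0.05. limma tested 21 serpin genes and called 13, with 12 higher and 1 lower in Ngfr KO. Of all genes tested by limma, 34.2% were called, 18.3% higher and 15.8% lower. edgeR tested 31 serpin genes and called 14, with 13 higher and 1 lower, where 15.2% of all genes were called, 8.67% higher and 6.55% lower. The tests shared 12 calls. Only limma called Serpinb9, and only edgeR called Serpina1d and Serpinb1-ps1. The median log2 change was 0.75 over the 21 serpin genes in limma (0.02 over all genes) and 1.56 over the 31 in edgeR (-0.02 over all genes).

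These counts need to be read with the filter and the copies in mind. Of the 21 serpin genes that limma tested, 6 reached a value of 1 in fewer than 3 WT samples and so passed with the help of Ngfr KO samples; 4 of these were called. Conversely, Serpine2 reached it in 4 WT and 0 Ngfr KO samples, so the only gene called lower passed through the group where it was high. The 5 Serpina1 copies are not independent of each other. Among the 18 serpin genes that share under 5% of their words with other genes, limma tested 12 and called 6 higher and 1 lower. Over all genes limma tested, 18.3% were higher and 15.8% lower. edgeR tested all 18 and called 5 higher and 1 lower, against 8.67% higher and 6.55% lower over all genes it tested. Over all 32 genes, the groups did not overlap in 17, with Ngfr KO above in 16 and below in 1. In the whole table the groups did not overlap in 25.6% of genes, with Ngfr KO above in 12.5% and below in 13.1%, and the share was 40.9% of the genes limma tested and 30.5% of those edgeR tested.

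No call of either test was kept when the FDC score was added as a covariate, an alternative chosen after seeing the data. limma then called 0 of 8326 genes (491 at an unadjusted p under 0.05) and edgeR 0 of 16751 (784). The size of the change did not shrink in every gene: in edgeR it was 3.94 for Serpina1d (log2; 3.27 without the score) and -2.78 for Serpine2 (-2.003), against 0.78 for Serpinb1a (3.31) and 0.90 for Serping1 (2.36). Of the serpin genes, Serpine2 and Serpina3i had an unadjusted p under 0.05 in limma, and Serpine2 and Serpina1d in edgeR. The ranges of the score do not overlap between groups, so genotype and FDC marker level cannot be told apart in these samples.

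**Figure D2:**
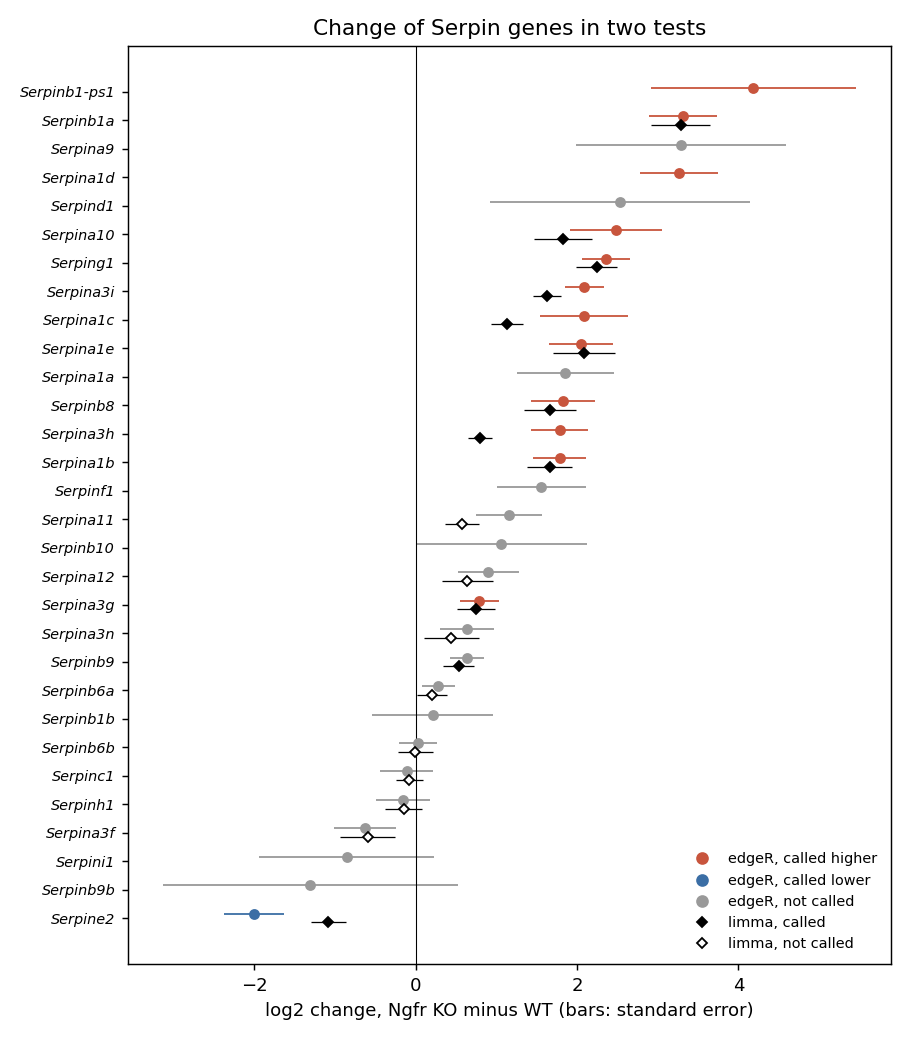
Log2 change (Ngfr KO minus WT) of 30 serpin genes tested by edgeR, with standard errors as bars; circles are edgeR values and diamonds limma values on log2(value + 1), drawn for the 20 of them that limma tested. Red and blue circles and filled diamonds were called; Serpine2 was the only serpin gene called lower, at -2.003 in edgeR and -1.08 in limma.

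Among the intracellular clade b genes, Serpinb1a, Serpinb8 and Serpinb9 rose in limma, while Serpinb6a and Serpinb6b were not called. Serpinb1a (chr13:32842092-32851185, minus strand) encodes an inhibitor of neutrophil elastase, cathepsin G and proteinase 3 that protects cells from their own granule proteases. Its value was 3.32, 12.7, 15.5 and 9.45 in WT replicates 1 to 4 and 104, 83.9 and 105 in Ngfr KO replicates 1 to 3. The lowest Ngfr KO value was therefore above every WT value, and WT replicate 1 was the lowest of all. The mean was 10.2 ± 5.24 in WT (SD, n = 4), compared with 97.6 ± 11.9 in Ngfr KO (SD, n = 3), a ratio of 9.53, and limma gave a log2 change of 3.29 (SE 0.37; adjusted p = 2.92e-04). Neutrophils are known for expressing this gene. The summed value of their markers was 0.0801 to 0.827 in Ngfr KO and 0.00435 to 78.5 in WT, with 5 of 8 listed markers in the table, and their part in the Serpinb1a values was not tested. Each of those 5 was at 0 in at least 1 sample.

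The other Serpinb1 genes were far lower. Serpinb1b was covered by 23 to 88 reads in WT, against 17 to 134 in Ngfr KO, and the groups overlapped (edgeR log2 change 0.21, SE 0.75, adjusted p = 0.880). The pseudogene Serpinb1-ps1 was covered by 2, 6, 0 and 0 reads in WT and 45, 33 and 37 in Ngfr KO. edgeR called it higher (log2 change 4.19, SE 1.27, adjusted p = 0.0497). Leaving out 1 sample kept this call only without WT replicate 2, with adjusted p-values of 0.0414 to 0.137 over the 7 fits. Of its 50-base words, 0.186% occur in Serpinb1a transcripts and 8.38% in those of Serpinb1c.

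Serpinb8 (chr1:107590006-107610484, plus strand), a cytosolic serpin that can inhibit the proprotein convertase furin, had values of 1.62, 6.12, 6.64 and 5.40 in WT and 15.3, 20.5 and 14.1 in Ngfr KO. The groups were clearly apart, and limma gave a log2 change of 1.67 (SE 0.32; adjusted p = 0.00271). edgeR called it (adjusted p = 0.0152) but not without Ngfr KO replicate 2 (0.0642). Serpinb9 encodes the inhibitor of granzyme B with which lymphocytes and dendritic cells guard themselves. It had values of 13.6, 10.2, 15.1 and 10.5 in WT and 21.9, 15.7 and 17.2 in Ngfr KO. The lowest Ngfr KO sample lay just above the highest WT sample. limma gave a log2 change of 0.53 (SE 0.19; adjusted p = 0.0493), and edgeR did not call it (adjusted p = 0.0635), except without WT replicate 3 (0.0407). Leaving out any sample other than WT replicate 3 ended the limma call, with adjusted p-values of 0.0281 to 0.208 over the 7 fits. The 7 macrophage and dendritic cell markers summed to 5.53 to 19.0 in WT and to 10.4 to 41.8 in Ngfr KO. They did not move together: the means of Adgre1, Cd68, Lyz2 and Cd14 were higher in Ngfr KO. Those of Mrc1 (6.23 in WT, 1.17 in Ngfr KO), Csf1r and Itgax were lower. The part of these cells in the Serpinb9 values was not tested.

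Serpinb6a, an inhibitor of cathepsin G and trypsin-like proteases, had 13.5, 13.5, 12.0 and 8.73 in WT and 13.1, 15.6 and 12.7 in Ngfr KO. The groups overlapped, and its log2 change of 0.21 had a 95% interval of -0.20 to 0.61 (limma adjusted p = 0.410). Its paralog Serpinb6b ranged from 5.81 to 11.4 in WT and from 7.17 to 9.20 in Ngfr KO, with a log2 change of -0.0022 and an interval of -0.46 to 0.46 (limma adjusted p = 0.995). The remaining clade b genes were low. Serpinb10 was covered by 1 to 156 reads in WT, against 84 to 213 in Ngfr KO, Serpinb9b by 0 to 48 and 0 to 18, and Serpinb2 by 0 to 19 and 4 to 10. None of them was called, and Serpinb2 was too low for either filter.

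Granule serine proteases, which several clade b serpins inhibit, were scarce in these libraries. Of 13 listed granule serine proteases, 4 were in the table (Ctsg, Prtn3, Gzmm and Mcpt4), limma tested none of them and edgeR tested Ctsg alone, which was not called (adjusted p = 0.732). Elastase (Elane) and Gzmb, both on the marker lists, were not among the genes found in the table. Lysosomal papain-like cathepsins, which some serpins of clades a and b bind, varied in level, with WT means of 2.62 (Ctsk) to 134 (Ctsl). limma tested 7 of the 8 listed and called 5 higher, where 18.3% of all genes it tested were higher. Ctsh had means of 63.8 ± 29.9 in WT (SD, n = 4), compared with 208 ± 33.7 in Ngfr KO (SD, n = 3), and Ctsc, the activator of granule serine proteases, 2.98 ± 1.498 and 13.1 ± 1.53. Their log2 changes were 1.86 and 1.90 (limma adjusted p = 0.00496 and 4.26e-04). Ctsb, Ctsk and Ctsz rose as well, and Ctsl and Ctss were not called (limma adjusted p = 0.550 and 0.968).

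In clade a, 4 of the 5 Serpina1 copies rose in Ngfr KO: Serpina1b, Serpina1c and Serpina1e in both tests and Serpina1d in edgeR. Over all genes tested, limma called 18.3% higher and edgeR 8.67%. These copies share much of their sequence, so their calls are not independent of each other. Alpha-1-antitrypsin is a plasma inhibitor of neutrophil elastase made mainly by the liver. Serpina1e carried most of the reads: its values were 6.41, 20.8, 25.9 and 26.2 in WT and 65.9, 79.0 and 90.6 in Ngfr KO. Every Ngfr KO sample was above every WT sample, and limma gave a log2 change of 2.09 (SE 0.38; adjusted p = 0.00215). Serpina1b had values of 3.13, 6.13, 8.00 and 9.97 in WT and 18.7, 24.1 and 24.4 in Ngfr KO. Its groups did not overlap either (log2 change 1.66, SE 0.28, limma adjusted p = 0.00149). WT replicate 1 was the lowest sample for both genes.

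The other copies were low. Serpina1c had values of 0.128, 0.820, 1.06 and 0.416 in WT and 2.41, 2.87 and 2.04 in Ngfr KO (log2 change 1.13, SE 0.20, limma adjusted p = 0.00190). Its edgeR call (adjusted p = 0.0282) was lost without WT replicate 2 or 4 or Ngfr KO replicate 1 or 2, with adjusted p-values of 0.0204 to 0.101 over the 7 fits. Serpina1d did not pass the limma filter and was covered by 63, 34, 20 and 70 reads in WT and 562, 614 and 207 in Ngfr KO. edgeR called it higher by 3.27 on the log2 scale (SE 0.49, adjusted p = 0.00475). Serpina1a was covered by 15 to 119 reads in WT, against 161 to 261 in Ngfr KO. These groups did not overlap, but edgeR did not call the gene (log2 change 1.86, SE 0.60, adjusted p = 0.0622), except without WT replicate 2 (adjusted p = 0.0336).

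The sum over the 5 copies is not affected by how reads were divided among those 5, provided that reads matching several copies were counted. Whether such reads were counted or dropped is not given in the sources used here. The sum can also depend on reads shared with the predicted gene Gm8893, which was not analysed here. That gene holds 15.6% (Serpina1b) to 36.6% (Serpina1c) of the copies' 50-base words. The sum was 10.01, 28.3, 35.1 and 37.1 in WT and 90.0, 109 and 118 in Ngfr KO, a ratio of the means of 3.83. Serpina1e made up 70.4% ± 4.54 of the sum in WT (SD, n = 4), compared with 74.1% ± 2.05 in Ngfr KO (SD, n = 3). Serpina1b made up 25.6% ± 4.36 and 21.2% ± 0.872. Neither difference passed the exact two-sided permutation test (p = 0.286 and 0.171, adjusted over the 10 shares tested in both clusters 0.476 and 0.343).

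In the Serpina3 cluster, Serpina3g, Serpina3h and Serpina3i rose, and Serpina3f and Serpina3n were not called. Whether these genes differ in their response was tested only through their shares, below, and that test could not settle it. Serpina3g encodes an intracellular inhibitor of lysosomal cathepsins studied in lymphocytes. Its values were 37.5, 33.6, 63.7 and 40.8 in WT and 80.1, 68.5 and 68.3 in Ngfr KO. WT replicate 3 came close to the Ngfr KO samples without reaching them. limma gave a log2 change of 0.75 (SE 0.23; adjusted p = 0.0287, edgeR adjusted p = 0.0496). The limma call was lost without WT replicate 1, 2 or 4 or without Ngfr KO replicate 1 or 2, with adjusted p-values of 0.00601 to 0.109 over the 7 fits. The edgeR call was kept in 1 of the 7 such fits, the one without WT replicate 3 (adjusted p-values of 0.0117 to 0.169).

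Serpina3i rose more steeply from a lower level, with values of 1.33, 1.93, 2.14 and 2.66 in WT and 8.47, 7.48 and 8.72 in Ngfr KO. The spread within each group was small against the gap, and limma gave a log2 change of 1.63 (SE 0.17; adjusted p = 2.25e-04). The pseudogene Serpina3h lies between Serpina3g and Serpina3i. It had values of 0.261, 0.719, 0.513 and 0.370 in WT and 1.349, 1.48 and 1.78 in Ngfr KO (log2 change 0.80, SE 0.15, limma adjusted p = 0.00268). It shares 15.8% of its 50-base words with Serpina3i and 14.1% with Serpina3g.

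Serpina3n, a secreted inhibitor whose targets include granzyme B, had 21.2, 15.7, 26.8 and 26.7 in WT and 36.8, 15.003 and 50.2 in Ngfr KO. Ngfr KO replicate 2 lay below every WT sample, and the gene was not called (log2 change 0.44, 95% interval -0.29 to 1.18, limma adjusted p = 0.325). Without that replicate it was called (log2 change 0.93, limma adjusted p = 0.0266). Serpina3f had 16.7, 17.9, 42.8 and 16.4 in WT and 13.9, 9.04 and 20.97 in Ngfr KO. Its groups overlapped, and it was not called (log2 change -0.60, 95% interval -1.33 to 0.13, limma adjusted p = 0.182).

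No share of the summed Serpina3 value passed the test between groups after adjustment. With 35 splits, even full separation of the groups in 1 share alone could not pass after adjustment over 10 shares. The adjusted p-values therefore do not settle whether the shares differ. Serpina3f made up 21.7%, 25.6%, 31.5% and 18.8% of the summed Serpina3 value in WT and 9.88%, 8.90% and 14.0% in Ngfr KO, so that the groups did not overlap. By the exact permutation test (two-sided) p was 0.0286, the smallest value that the 35 splits allow, and 0.143 after adjustment over the 10 shares. Serpina3i made up 2.28% ± 0.740 in WT (SD, n = 4), compared with 6.40% ± 0.843 in Ngfr KO (SD, n = 3), with the same exact p-values. The shares of Serpina3g and Serpina3n had exact permutation p-values of 0.143 and 1.0 before adjustment. The summed value was 69.8 to 136 in WT, against 101 to 150 in Ngfr KO, and these ranges overlapped.

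**Figure D3:**
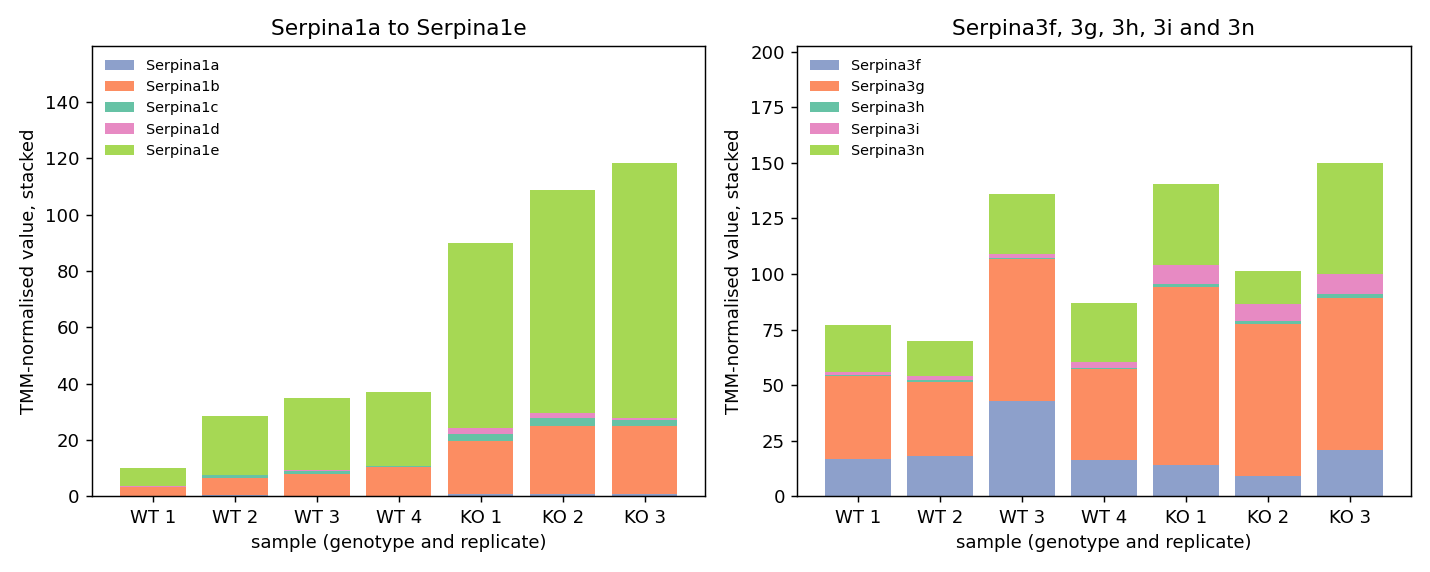
Stacked TMM-normalised values of the Serpina1 copies (left) and the Serpina3 genes (right) in each of the 7 samples. The Serpina1 stack is 10.01 to 37.1 in WT, against 90.0 to 118 in Ngfr KO, whereas the Serpina3 stacks overlap in height and Serpina3f (bottom) makes up 18.8% to 31.5% in WT, against 8.90% to 14.0% in Ngfr KO (exact permutation p adjusted 0.143).

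Promoters are shown for Serpina3g and Serpina3i, which rose, and for Serpina3f, which was not called. Each window runs from 250 bases before to 50 bases after the annotated start (RefSeq, GRCm38.p6, plus strand of chromosome 12), at chr12:104214294-104214593 for the first of 2 Serpina3f starts, chr12:104235897-104236196 for Serpina3g and chr12:104262872-104263171 for Serpina3i. Capitals mark matches to 3 motifs searched on both strands: the STAT site GAS (TTCNNNGAA), the degenerate NF-kB site and the interferon-stimulated response element (ISRE).
Serpina3f: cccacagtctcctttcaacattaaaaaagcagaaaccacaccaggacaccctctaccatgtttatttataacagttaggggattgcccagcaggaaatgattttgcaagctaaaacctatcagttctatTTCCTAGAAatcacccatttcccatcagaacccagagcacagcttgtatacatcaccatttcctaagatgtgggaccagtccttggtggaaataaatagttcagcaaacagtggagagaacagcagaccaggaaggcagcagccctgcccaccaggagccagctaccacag
Serpina3g: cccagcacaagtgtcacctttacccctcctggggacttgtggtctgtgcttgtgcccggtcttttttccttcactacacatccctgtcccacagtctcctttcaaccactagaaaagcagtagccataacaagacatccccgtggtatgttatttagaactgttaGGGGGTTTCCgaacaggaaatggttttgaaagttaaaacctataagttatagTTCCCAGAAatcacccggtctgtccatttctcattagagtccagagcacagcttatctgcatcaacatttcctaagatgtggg
Serpina3i: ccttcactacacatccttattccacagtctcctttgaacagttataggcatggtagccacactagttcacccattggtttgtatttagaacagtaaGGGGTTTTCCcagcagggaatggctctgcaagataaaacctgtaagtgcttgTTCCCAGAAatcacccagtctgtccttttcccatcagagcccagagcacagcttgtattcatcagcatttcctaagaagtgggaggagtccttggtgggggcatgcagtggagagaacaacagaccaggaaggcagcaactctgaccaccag
A GAS match was present in all 3, with its first base at position -121 in Serpina3f, -33 in Serpina3g and -102 in Serpina3i, counted from the annotated start. A kB match was present in Serpina3g at -85 and Serpina3i at -154. No match overlapped another in these windows. Windows were found for 25 of the 32 genes. These 25 genes have 29 windows. GAS letters were in 9 of the 29 (6 genes: Serpina11, Serpina3f, Serpina3g, Serpina3i, Serpinb2 and Serpinb6a), and in 8.30% of all 32851 windows in the table. The windows of 1 gene can overlap and then hold the same match. The kB letters were in 3 of the 29 (Serpina3g, Serpina3i and Serpinh1) and in 8.46% of all windows, and the ISRE letters in 0 of the 29 and in 0.17%. Under another spelling of the kB site, with its first 5 letters fixed, the matched windows were those of Serpina3i and Serpina3n (5.78% of all windows), so the kB result depends on the spelling. A shorter spelling of the ISRE was found in Serpinb6a and Serpinb9 (3.44% of all windows). The genes with a GAS match include ones that rose (Serpina3g and Serpina3i) and ones that were not called (Serpina3f and Serpina11). A match describes letters and does not show binding.

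Of the other clade a genes, Serpina10 rose. It encodes the protein Z-dependent inhibitor of activated coagulation factor X. Its values were 0.471, 0.786, 1.49 and 2.97 in WT and 6.59, 3.90 and 12.9 in Ngfr KO. Both groups were widely spread, yet they did not overlap (log2 change 1.83, SE 0.36, limma adjusted p = 0.00304). edgeR called it as well (adjusted p = 0.0178), but not without Ngfr KO replicate 3.

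Serpina12, known as the adipokine vaspin, had 2.68, 4.33, 3.83 and 6.50 in WT and 6.12, 4.10 and 13.4 in Ngfr KO and was not called (95% interval of the log2 change -0.05 to 1.33, limma adjusted p = 0.131). Without Ngfr KO replicate 2 it was called (log2 change 0.97, limma adjusted p = 0.0481). Serpina11, a little-studied relative, had 0.525, 0.490, 0.874 and 1.27 in WT and 1.55, 0.977 and 2.61 in Ngfr KO (log2 change 0.57, limma adjusted p = 0.0556). It too was called without Ngfr KO replicate 2 (limma adjusted p = 0.0298). For Serpina10, Serpina11, Serpina12 and Serpina3n alike, Ngfr KO replicate 3 was the highest sample and replicate 2 the lowest of its group. Marker sums of several cell types had the same order in Ngfr KO replicates 1 to 3. They were 17.6, 10.4 and 41.8 for macrophages and dendritic cells and 114, 103 and 131 for fibroblastic reticular cells. Cytotoxic and NK markers (2 of 6 listed were in the table) had 1.44, 0.675 and 3.68. Not every macrophage marker followed: Mrc1 was lowest in replicate 3 and Csf1r highest in replicate 2. Of the fibroblastic reticular markers, only Pdpn and Col1a1 had this order. Ccl21a (19.7, 14.6 and 3.26), Il7 and Pdgfrb were lowest in replicate 3, where Ccl19 alone gave 100 of the sum. Of the cytotoxic markers, Prf1 was lowest in replicate 3 too. The part of these cells in the values of these serpin genes was not tested. Serpina9, a serpin of germinal centre B cells, was covered by 13, 15, 0 and 0 reads in WT and 26, 109 and 73 in Ngfr KO and was not called (edgeR adjusted p = 0.112). The summed value of 7 B-cell markers was 13.2 to 22.5 in WT, against 10.2 to 36.2 in Ngfr KO. Its part in the Serpina9 reads was not tested.

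**Figure D4:**
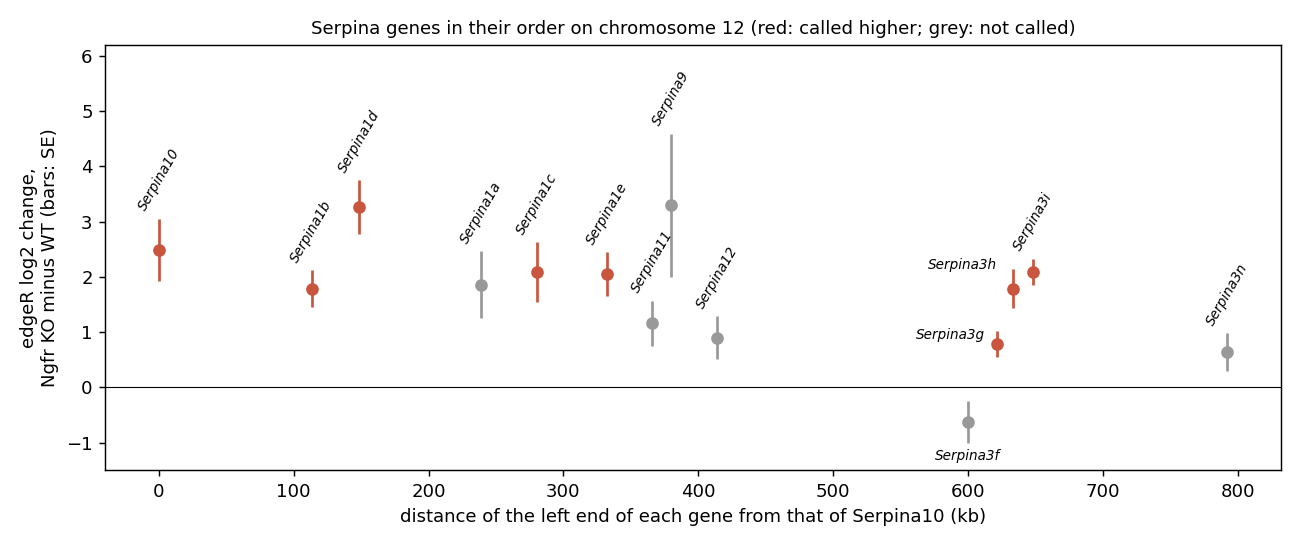
edgeR log2 change (Ngfr KO minus WT, bars are standard errors) of the 14 Serpina genes against their distance along chromosome 12 from the first of them. The values were above 0 for 13 genes; Serpina3f, at -0.63, lay next to Serpina3g at 0.79 and was not called.

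Among the secreted serpins of clades c to i, Serping1 rose and Serpine2 fell. Serping1 (chr2:84765387-84775444, minus strand) encodes C1 inhibitor, which stops the first proteases of the classical complement pathway. It had values of 6.02, 7.43, 11.05 and 14.8 in WT and 53.5, 49.0 and 41.4 in Ngfr KO. The lowest Ngfr KO sample was well above the highest WT sample (log2 change 2.24, SE 0.26, limma adjusted p = 3.11e-04). No other transcript shares a 50-base word with it.

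Complement proteases, among them the targets of C1 inhibitor, were measured in the same libraries. C1s1, a direct target, had 6.73, 11.3, 9.61 and 17.0 in WT and 26.998, 28.7 and 29.4 in Ngfr KO (log2 change 1.34, SE 0.25, limma adjusted p = 0.00218). C1ra, the other direct target, had 6.49, 6.73, 7.39 and 11.4 in WT and 13.4, 11.3 and 12.6 in Ngfr KO, where the groups just overlapped (log2 change 0.60, SE 0.20, limma adjusted p = 0.0331, edgeR adjusted p = 0.0611). C2, which C1s cleaves, was called higher (limma adjusted p = 0.00958), and Cfb of the alternative pathway was not (adjusted p = 0.102). In all, 5 of 7 listed complement proteases were in the table, 4 were tested by limma and 3 were higher, where 18.3% of all genes limma tested were higher.

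Serpine2 (chr1:79794197-79861180, minus strand) encodes protease nexin, a cell-surface inhibitor of thrombin and plasminogen activators. Its reads numbered 524, 364, 882 and 710 in WT and 197, 127 and 159 in Ngfr KO. Values were 2.04, 1.36, 3.83 and 2.71 in WT and 0.715, 0.431 and 0.637 in Ngfr KO. The highest Ngfr KO sample was therefore lower than the lowest WT sample. limma gave a log2 change of -1.08 (SE 0.21; adjusted p = 0.00320) and edgeR one of -2.003 (SE 0.37; adjusted p = 0.00855). The summed value of 12 endothelial markers was 144 to 248.8 in WT, against 42.7 to 79.1 in Ngfr KO. It moved in the same direction as Serpine2, and its part in that change was not tested. In bulk samples, fewer cells of a type and less RNA per cell cannot be told apart.

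The plasminogen activators were not called. Plat had values of 0.610 to 4.19 in WT, against 1.21 to 2.63 in Ngfr KO (limma adjusted p = 0.544), and Plau was too low for limma (edgeR adjusted p = 0.997). Thrombin's precursor F2 had 0.514, 0.329, 0.652 and 0.339 in WT and 2.22, 2.82 and 1.42 in Ngfr KO (log2 change 1.09, limma adjusted p = 0.00115). F2 reached a value of 1 only in Ngfr KO samples, so it passed the limma filter through the group where it was high. edgeR, with another filter, called it too (log2 change 2.32, adjusted p = 0.00492). In contrast, 3 genes through which thrombin and antithrombin act at cell surfaces fell. The thrombin receptor F2r went from 8.37 ± 2.31 (SD, n = 4) to 2.63 ± 1.17 (SD, n = 3), and thrombomodulin, Thbd, from 8.29 ± 3.50 to 2.32 ± 0.331. Hs3st1, whose enzyme makes the heparan sulphate site that binds antithrombin, went from 2.56 ± 1.08 to 0.546 ± 0.379. The limma adjusted p-values of these 3 were 0.00210, 0.00267 and 0.00284. Endothelial markers fell too (11 of 11 tested by limma, median log2 change -1.46). The listed marker Vwf was too low for limma, with means of 0.345 in WT and 0.327 in Ngfr KO. edgeR called 10 of the 12 listed lower, where 6.55% of all genes it tested were lower. The part of endothelial cells in the changes of F2r, Thbd and Hs3st1 was not tested. Of the 16 listed cofactors and clearance receptors, limma tested 10 and called 3 lower and 1, Sdc2, higher. Over all genes it tested, 15.8% were lower and 18.3% higher.

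The other thrombin inhibitors were low. Serpinc1, antithrombin, was covered by 191 to 371 reads in WT, against 182 to 269 in Ngfr KO, and its log2 change of -0.08 had a 95% interval of -0.43 to 0.28 (limma adjusted p = 0.734). Serpind1, heparin cofactor, was covered by 0 to 34 reads in WT, against 0 to 177 in Ngfr KO, with the highest count in replicate 3 (edgeR adjusted p = 0.317).

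Serpinh1 and Serpinf1, which do not inhibit proteases, and Serpini1 were not called. Serpinh1 encodes the procollagen chaperone of the endoplasmic reticulum. It had 1.79, 1.68, 2.55 and 3.50 in WT and 1.67, 1.41 and 3.11 in Ngfr KO (log2 change -0.15, 95% interval -0.64 to 0.34, limma adjusted p = 0.619). Among 16 listed collagen chains and collagen-folding genes, limma tested 13 and called 4 higher (Col5a1, P4hb, P4ha1 and P4ha2) and 1 lower (Plod1). The shares over all genes limma tested were 18.3% higher and 15.8% lower. Serpinf1, an anti-angiogenic secreted serpin, was covered by 29 to 82 reads in WT, against 91 to 232 in Ngfr KO. Its values nevertheless overlapped after scaling, at 0.111 to 0.356 and 0.309 to 0.842 (edgeR adjusted p = 0.0825). Serpini1, neuroserpin, was covered by 23 to 49 reads in WT and by 5, 2 and 47 in Ngfr KO (edgeR adjusted p = 0.636).

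Protease inhibitors of other families gave a mixed picture. Of 26 listed, limma tested 11 and called 3 higher (Timp1, Spint2 and Pebp1) and 3 lower (Timp2, Timp3 and Reck), with a median log2 change of -0.40. Timp3, an inhibitor of metalloproteinases held in the matrix, had 51.1 to 99.0 in WT, against 28.8 to 37.7 in Ngfr KO, while Timp1 had 1.40 to 2.06 and 2.60 to 8.75. Over all 107 companion genes (proteases, cofactors, collagen-folding genes and other inhibitors), limma tested 49 and called 19 higher and 7 lower. For comparison with both counts, 18.3% of all genes limma tested were higher and 15.8% lower.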

How the data were processed

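RNA of sorted FDCs was amplified with SMART-Seq v4 and made into Nextera XT libraries, per the labels' protocols. The authors deposited 1 table of signal per gene and sample, named TMM (trimmed mean of M values). The submitters' processing notes name bcl2fastq 2.20.0.422 and the build mm10; aligner, counting program and annotation are not given in the sources used here. All values of a sample (100%, within 0.01 reads) were whole multiples of 1 step, so reads were recovered by division. The table holds no gene with fewer than 3 reads over all samples. Amplified reads are not independent molecules, so read counts speak for counting error only.

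limma 3.58.1 (R 4.3.3; lmFit, eBayes with trend) was run on log2(value + 1), and edgeR 4.0.16 (glmQLFTest, filterByExpr, TMM factors) on the recovered reads. Both had no covariates, were adjusted over all genes tested and were checked on simulated data. A limma log2 change is on the log2(value + 1) scale and understates low genes; an edgeR standard error is the log2 change divided by the square root of F. DESeq2 1.42.0 was an alternative. p-values measure the spread between pools of animals. Same-numbered samples were not treated as pairs. Genes named are the serpin genes called by either test or tested by limma, the 5 with the highest means, and companion genes that were called or belong to a serpin described; low serpin genes were added after their values were seen. Promoter motifs were spelled after values were seen. Coordinates come from GENCODE M21 and promoters from RefSeq, both GRCm38; all 32 serpin identifiers matched. The genes and lists were chosen with earlier results of these data known. Counts and sums cover all 32 genes, but not every gene is reported here by name.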

Additional observations from a re-analysis of the deposited data

Results flagged for a closer look

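In WT, 31 serpin genes were examined for a sample far from the other 3. Serpina3f stood out, with a value of 42.8 in WT replicate 3 against 16.4 to 17.9 in the other WT samples. The gap took 0.943 of the group's range; this is above Dixon's critical value, and chance alone would give about 1.55 such genes of 31 at 1 in 20. The same replicate was also the highest WT sample for Serpina3g. It also had the highest sum of plasma cell markers, 45.7 against 6.95 to 10.8 in the other WT samples. Jchain alone gave 31.8 of that sum. Of the other listed markers, Mzb1 and Xbp1 were also highest there among WT samples, and Sdc1 and Prdm1 were not. The part of plasma cells in the Serpina3f and Serpina3g values was not tested.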

How the results depend on the processing

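The count of 13 serpin genes called by limma was 7 of 10 with a stricter filter (a value of 10 in 3 samples), and 12 to 15 with pseudocounts of 0.1 or 5, no filter, median ratio scaling, quantile normalization or the replicate block. Leaving out each sample in turn gave 10 to 13. The FDC marker score as a covariate, chosen after seeing the data, gave 0 called by limma and 0 by edgeR among the serpin genes, 0 of all genes and 0 of the companion genes. For all genes, limma's 2844 calls became 535 with the stricter filter (359 higher, 176 lower) and 1614 to 3006 over the fits without 1 sample, with 1614 without Ngfr KO replicate 2, 1803 without Ngfr KO replicate 1 and 1870 without WT replicate 1. The 26 companion genes called became 13 with the stricter filter. edgeR's 14 serpin calls became 10 to 14 without 1 sample, 12 with reads thinned to the smallest library (also added after seeing the data) and 19 in DESeq2.

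The median log2 change of the serpin genes, 0.75, was 1.01 with a pseudocount of 0.1, 0.41 with 5, 0.49 without a filter, 1.20 with the stricter filter, 0.24 with the FDC score, 1.56 in edgeR and 0.66 to 1.00 without 1 sample. The cause of these shifts was not tested.

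Signs turned in 19 alternative values, none of them called. Serpinb6b was at 0.0015 with a pseudocount of 0.1, 0.058 with median ratio scaling, 0.030 in edgeR, 0.88 with the FDC score and -0.15 to 0.14 without 1 sample. Serpinc1 was at 0.023 with the replicate block and -0.13 to 0.025 without 1 sample, and Serpinh1 at -0.38 to 0.0027 without 1 sample. With the FDC score, limma gave -0.32 for Serpina12, -0.21 for Serpina1b, -0.65 for Serpina1e and -0.45 for Serpinb8, and edgeR gave -0.39 for Serpina10, -0.38 for Serpina1b, -1.30 for Serpina1c, -0.76 for Serpina1e and -0.87 for Serpinb8; the other called genes kept their sign.

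Deviations from the group mean correlated between same-numbered samples at r of 0.30, -0.06 and -0.01 for replicates 1 to 3. Differently numbered pairs ranged from -0.20 to 0.11. These few pairs cannot settle whether samples are paired by the replicate number. With it as a block, limma called 14 serpin genes (12 higher, 2 lower) and edgeR 12; Serpina11, Serpina12 and Serpina3f were added to the limma calls and Serpina3g (adjusted p = 0.0577) and Serpinb9 were lost, and edgeR no longer called Serpina1c, Serpina3g (0.113) or Serpinb1-ps1.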
